A study of Homo sapiens with 12 samples.

Results

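The genes described here are receptors, ligands and helpers of the fibroblast growth factor (FGF) system: the receptor tyrosine kinases FGFR1, FGFR2, FGFR3 and FGFR4, the receptor-like protein FGFRL1, the ligands FGF2, FGF9 and FGF18, the secreted carrier FGFBP1 and the adaptor FRS2. They were taken from a list of 10 genes, of which 9 had a probe set that the platform annotation pairs with 1 gene symbol, and FRS2 was not analysed here. The 9 are among 19775 genes with such a probe set and 13185 genes tested. For each gene the brightest of its probe sets over the 12 arrays gave the main value, and the other 28 of the 37 probe sets of the 9 genes served as a check where they passed the filter.

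Messenger RNA of 2 established human lung adenocarcinoma lines, PC9 and HCC827, both of which carry an activating mutation in EGFR, was measured on Affymetrix HG-U133 Plus arrays. The 4 groups were PC9 cells in 2 micromolar erlotinib, which blocks the kinase activity of EGFR, PC9 cells in DMSO, the solvent of the drug, HCC827 cells in 2 micromolar erlotinib, and HCC827 cells in DMSO, each with 3 arrays. All cells grew in RPMI medium with 10% fetal bovine serum, received fresh medium and agent once after day 4 and were harvested after 8 days. Per the labels, erlotinib cultures started from 8000000 cells in 2 flasks of 150 cm² and DMSO cultures from 1500000 cells in 10 cm dishes. The series text instead gives flasks for all. By the labels, vessel and plated number cannot be told apart from the drug. The labels leave unsaid whether replicate arrays represent independent cultures, and the p-values therefore measure only the spread between these samples.

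FGFs are secreted proteins that bind heparan sulfate chains on the cell surface and, together with these chains, bring FGF receptors into pairs that phosphorylate each other and the adaptor FRS2. From there the signal runs through GRB2, SOS and RAS to the ERK kinases, the same cascade that mutant EGFR drives, and ERK in turn raises inhibitors of the cascade such as the Sprouty proteins and the phosphatase DUSP6. In the lung, FGF9, FGF18 and the receptors FGFR2 and FGFR3 are known from the growth and branching of the developing organ, and FGF2 with FGFR1 is known as an autocrine growth loop in some lung cancer lines.

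Upstream sequences of 3 of the genes are given from RefSeq (GRCh38.p14), because these genes carried the clearest changes with erlotinib (FGFR3 and FGFBP1) and the clearest difference between the lines (FGF2). Each is the 250 bases before the annotated start of the gene, read 5′ to 3′ on the strand of the gene, and capitals mark GC boxes (GGGCGG, or CCGCCC on the other strand).
FGFR3, chr4:1793043-1793292, plus strand: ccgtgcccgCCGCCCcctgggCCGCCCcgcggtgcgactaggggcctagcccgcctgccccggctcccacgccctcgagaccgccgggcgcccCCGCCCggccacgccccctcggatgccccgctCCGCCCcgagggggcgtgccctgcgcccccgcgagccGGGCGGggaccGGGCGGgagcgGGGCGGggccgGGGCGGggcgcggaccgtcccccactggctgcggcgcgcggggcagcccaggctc
FGF2, chr4:122826581-122826830, plus strand: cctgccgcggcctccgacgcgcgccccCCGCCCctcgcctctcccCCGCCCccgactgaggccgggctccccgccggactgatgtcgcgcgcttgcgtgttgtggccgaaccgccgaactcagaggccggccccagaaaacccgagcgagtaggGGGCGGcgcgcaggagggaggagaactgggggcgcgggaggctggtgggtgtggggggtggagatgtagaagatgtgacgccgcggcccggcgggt
FGFBP1, chr4:15938741-15938990, minus strand: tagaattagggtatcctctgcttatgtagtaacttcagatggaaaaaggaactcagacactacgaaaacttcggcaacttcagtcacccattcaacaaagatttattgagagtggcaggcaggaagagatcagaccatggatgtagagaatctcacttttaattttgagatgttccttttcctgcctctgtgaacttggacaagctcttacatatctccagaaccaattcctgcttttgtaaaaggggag
The FGFR3 window held 8 GC boxes and 40 CG dinucleotides, and the FGF2 window held 3 GC boxes and 33 CG dinucleotides. The FGFBP1 window held 0 GC boxes and 2 CG dinucleotides. Among 34786 windows of the same length, 42.6% held a GC box and the median number of CG dinucleotides was 11. An AP-1 site (TGANTCA, either strand) was in 6.59% of all windows and an ETS site (CCGGAA, either strand) in 14.5%, and neither was in any of the 3. The FGFBP1 window was thus poor in CG, and the FGFR3 and FGF2 windows were rich in it. A link between these windows and the signals of the 3 genes was not tested.

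Signals are linear MAS5 intensities, and the median of the whole table, 13, was taken as the level of background. Median signals per array ran from 11.1 to 14.5. The small number of arrays limits the precision of each value. All 7 epithelial markers (among them EPCAM, CDH1 and KRT18) were above 13 in every group, whereas COL1A2, COL3A1, DCN, PDGFRB and THY1 of the 9 fibroblast markers were near background. LUM and COL1A1 were higher with erlotinib, and the summed fibroblast signal was 391.6 to 476.6 in PC9 erlotinib arrays against 86.3 to 125.7 in PC9 DMSO arrays, and 638.9 to 702 in HCC827 erlotinib arrays against 168.6 to 191.2 in HCC827 DMSO arrays. Leukocyte markers above 13 numbered 1 of 5 in PC9 erlotinib arrays and 0 in the other 3 groups, and endothelial markers above 13 numbered 2 of 5 in both PC9 groups and 0 in both HCC827 groups. The part of these markers in the FGF results was not tested. The actin 3′/5′ control ratio, a sign of RNA integrity, was 2.45 to 3.64 in HCC827 erlotinib arrays and 2.1 to 2.21 in HCC827 DMSO arrays (exact two-sided permutation p = 0.1, the smallest 3 against 3 arrays can give), and 2.05 to 2.53 in PC9 erlotinib arrays and 2.09 to 2.35 in PC9 DMSO arrays (exact two-sided permutation p = 1). PC9 DMSO replicate 2 stood apart in a way that touches FGF2 and is described with it.

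Erlotinib was followed by a higher FGFR3 signal and a lower FGFBP1 signal in both lines, and these were the only members called in the same direction in both. FGF18 rose in PC9, and FGF9 rose in HCC827 on its brightest probe set. FGFR4 and FGFRL1 were called in opposite directions, but the HCC827 call of FGFR4 and the PC9 call of FGFRL1 were lost under some settings. FGFR2 and FGF2, on their brightest probe sets, did not pass the test in either line. The test was limma on log2 of the signal plus 8 over all 12 arrays, with Benjamini-Hochberg adjustment over all genes and a threshold of 0.05. In PC9, 7 of 9 members were called, 2 higher and 5 lower, against 64.7% of all genes (36.3% higher, 28.3% lower). In HCC827, 5 of 9 were called, 4 higher and 1 lower, against 51.7% of all genes (32.2% higher, 19.5% lower). The share of members called was near that of all genes in both lines, so it says nothing particular about the FGF genes. Centring each array on its median moved the median change of all genes by -0.15 in PC9 and -0.07 in HCC827 (log2), and the share of called genes that were higher was 41.6% after centring against 56.2% before it in PC9, and 50.4% against 62.3% in HCC827. Arrays of erlotinib and DMSO did not overlap for 7 members in PC9, against 64.9% of all genes, and for 7 in HCC827, against 62.1% of all genes.

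**Figure D1:**
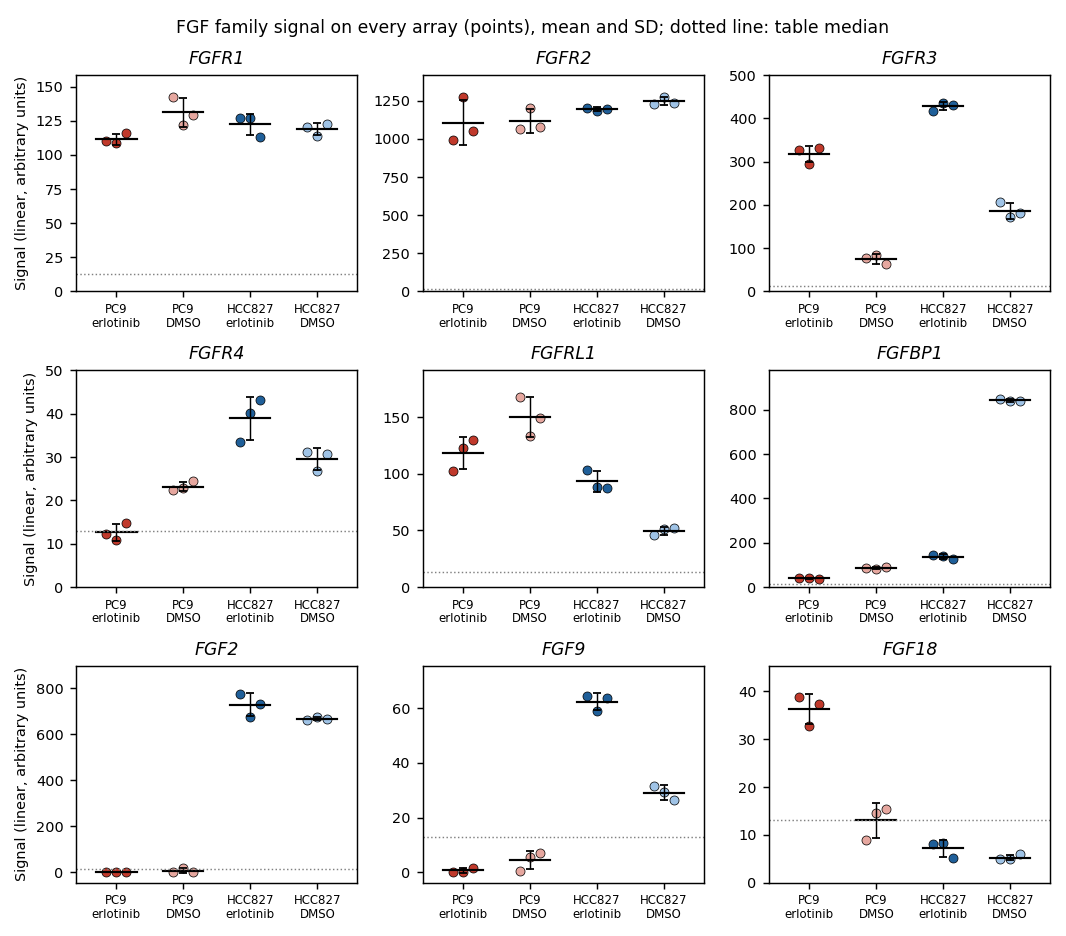
Linear signal of the 9 FGF genes (arbitrary units, brightest probe set) on every array. Points are arrays, long bars the mean and short bars the SD of 3 arrays, and the dotted line is the median of the table, 13. FGFR3 was higher and FGFBP1 lower with erlotinib in both lines, and FGF2 was far above background on HCC827 arrays alone.

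FGFR3, a receptor that is activated by mutation or fusion in bladder cancer, had signals of 326.1, 295.2 and 331.1 on PC9 erlotinib arrays and 77.9, 83.8 and 63.3 on PC9 DMSO arrays. In HCC827 the erlotinib arrays read 417.5, 435.5 and 430 and the DMSO arrays 205.9, 171.3 and 180.6. The erlotinib arrays were all above the DMSO arrays of their line, and those of HCC827 were the highest. The mean was 317.5 ± 19.4 in PC9 erlotinib and 75 ± 10.6 in PC9 DMSO (SD, n = 3 each), a linear ratio of 4.23. In HCC827 it was 427.7 ± 9.22 with erlotinib and 185.9 ± 17.9 in DMSO, a ratio of 2.3. On the log2 scale FGFR3 rose by 1.98 ± 0.1 (SE) in PC9 (limma, adjusted p = 4.27e-11) and by 1.17 ± 0.1 in HCC827 (limma, adjusted p = 5.63e-08). The PC9 change was larger than the HCC827 change by 0.81 ± 0.14 (limma, adjusted p = 0.000198). PC9 was below HCC827 by a log2 difference of -1.23 in DMSO (limma, adjusted p = 6.9e-09) and of -0.42 in erlotinib (limma, adjusted p = 0.00094). All of these calls were kept under every alternative setting tried. The mean over both of its probe sets gave log2 changes of 0.9 in PC9 and 0.55 in HCC827, since the other probe set, 204380_s_at, lay between 0.6 and 7.2 on all arrays.

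FGFR4, the receptor for the endocrine ligand FGF19 in liver, lay close to background in PC9 erlotinib arrays, with 12.2, 10.9 and 14.8, against 22.3, 22.8 and 24.4 on PC9 DMSO arrays. HCC827 arrays read 33.5, 40.2 and 43.1 with erlotinib and 31.2, 26.7 and 30.8 in DMSO. In PC9 the erlotinib arrays were all below the DMSO arrays, and in HCC827 they were all above. FGFR4 fell in PC9 by 0.6 ± 0.12 on the log2 scale (limma, adjusted p = 0.00033), by 0.31 with a constant of 32 in place of 8. In HCC827 it was called higher by 0.32 ± 0.12 (limma, adjusted p = 0.0344). The changes differed between the lines by -0.92 ± 0.17 (limma, adjusted p = 0.000354), and the levels by -1.18 in erlotinib, PC9 minus HCC827 (limma, adjusted p = 1.27e-07). In DMSO the level difference, -0.27, missed the threshold (limma, adjusted p = 0.0508).

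The HCC827 call of FGFR4 was fragile. Without HCC827 erlotinib replicate 2 it was 0.3 (limma, adjusted p = 0.094), without HCC827 erlotinib replicate 3 it was 0.25 (0.131), and without HCC827 DMSO replicates 1, 2 and 3 in turn it was 0.35 (0.051), 0.26 (0.128) and 0.34 (0.0563), with the limma adjusted p in parentheses. With the actin ratio as a covariate the change was 0.14 (limma, adjusted p = 0.593), and without HCC827 erlotinib replicates 2 and 3 together, the arrays with the highest ratios, it was 0.15 (limma, adjusted p = 0.535). The call was also lost with a constant of 1 in place of 8, under both other scalings and without the filter. Of its 3 other probe sets only 211237_s_at passed the filter, with log2 changes of -0.26 in PC9 and -0.41 in HCC827 that did not pass the test (limma, adjusted p = 0.207 and 0.0613). On that probe set the difference between the changes was 0.15 (limma, adjusted p = 0.659), so that the FGFR4 difference rests on 1 probe set. PC9 was below HCC827 on it in DMSO by -0.84 (limma, adjusted p = 0.000394).

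FGFR1, a receptor for FGF2 in mesenchymal cells, gave 109.9, 108.7 and 116.1 on PC9 erlotinib arrays and 142.7, 122 and 129.3 on PC9 DMSO arrays. HCC827 arrays read 127, 126.7 and 113.3 with erlotinib and 120.7, 113.9 and 122.5 in DMSO. The PC9 erlotinib arrays were all below the PC9 DMSO arrays, and the HCC827 groups overlapped. FGFR1 was called lower in PC9 by a log2 change of -0.22 ± 0.09 (limma, adjusted p = 0.0378). In HCC827 the change was 0.04 ± 0.09 (limma, adjusted p = 0.754), the changes differed by -0.25 ± 0.12 (limma, adjusted p = 0.105), and neither comparison of the lines passed the test. After quantile normalization the difference of the changes was called (-0.36, limma adjusted p = 0.0229), as was that of the lines in DMSO (0.22, limma adjusted p = 0.0236).

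The PC9 call of FGFR1 was lost when single arrays were left out. The change was -0.16 without PC9 DMSO replicate 1 (limma, adjusted p = 0.15), -0.23 without PC9 DMSO replicate 3 (0.0656), -0.21 without PC9 erlotinib replicate 1 (0.0812), -0.2 without PC9 erlotinib replicate 2 (0.0904) and -0.22 without HCC827 DMSO replicate 1 (0.0502), with the limma adjusted p in parentheses. It was -0.38 after quantile normalization, -0.37 after centring and -0.13 over the mean of its probe sets (limma, adjusted p = 0.132), and the call was also lost without the filter (limma, adjusted p = 0.0527) and with the 6 PC9 arrays alone (limma, adjusted p = 0.081). Of its 7 probe sets 5 passed the filter. In a fit of all probe sets, 215404_x_at was called lower in both lines, with log2 changes of -0.33 in PC9 and -0.29 in HCC827 (limma, adjusted p = 0.0201 and 0.0475). The probe set 211535_s_at was called higher in HCC827, 0.43 (limma, adjusted p = 0.0127), and its change in PC9 was -0.02. On 210973_s_at PC9 was above HCC827 in erlotinib by 0.47 (limma, adjusted p = 0.00635) and in DMSO by 0.50 (limma, adjusted p = 0.00441), and on 211535_s_at it was below HCC827 in erlotinib by -0.40 (limma, adjusted p = 0.0124). The probe sets of FGFR1 thus disagreed, in HCC827 and between the lines.

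FGFR2, which epithelial and mesenchymal cells splice into forms with different ligands, depended on the probe set. The brightest, 208229_at, read 995.1, 1275.5 and 1050.6 on PC9 erlotinib arrays and 1062.1, 1204.7 and 1078.3 on PC9 DMSO arrays. HCC827 arrays read 1205.2, 1182.6 and 1198.6 with erlotinib and 1226.8, 1276.3 and 1236.3 in DMSO. The PC9 groups overlapped, and the HCC827 erlotinib arrays were all slightly below the HCC827 DMSO arrays. The log2 change was -0.02 ± 0.08 in PC9 (limma, adjusted p = 0.865) and -0.06 ± 0.08 in HCC827 (limma, adjusted p = 0.535), and the lines did not differ past the threshold in DMSO, -0.16 (limma, adjusted p = 0.0638), or in erlotinib, -0.12 (limma, adjusted p = 0.167).

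On 203638_s_at, by contrast, FGFR2 read 2.2, 0.3 and 0.3 on PC9 erlotinib arrays and 0.1, 1.4 and 2.2 on PC9 DMSO arrays, all at background. HCC827 arrays read 95.8, 92.4 and 94.1 with erlotinib and 52.8, 52 and 58 in DMSO. On this probe set FGFR2 was above background in HCC827 alone and rose there with erlotinib by 0.71 (limma, adjusted p = 0.000204), without overlap of the arrays. Unlike on the brightest probe set, the lines differed in erlotinib and in DMSO (limma, adjusted p = 1.6e-13 and 4.05e-12), by amounts that depend on the constant of 8. Both 203638_s_at and 208228_s_at passed the filter only through the HCC827 groups, so that a difference between the lines was built into their selection. The probe set 208228_s_at gave 43.3, 47.5 and 40.1 on HCC827 erlotinib arrays and 23.1, 28.3 and 25.4 on HCC827 DMSO arrays, and no PC9 array was above 12. Its HCC827 change was 0.62 (limma, adjusted p = 0.0451). The other 8 of 11 probe sets were below the filter. The platform annotation gives no transcript for 208229_at beyond the gene symbol, and which of the probe sets follows FGFR2 messenger RNA was not tested.

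**Figure D2:**
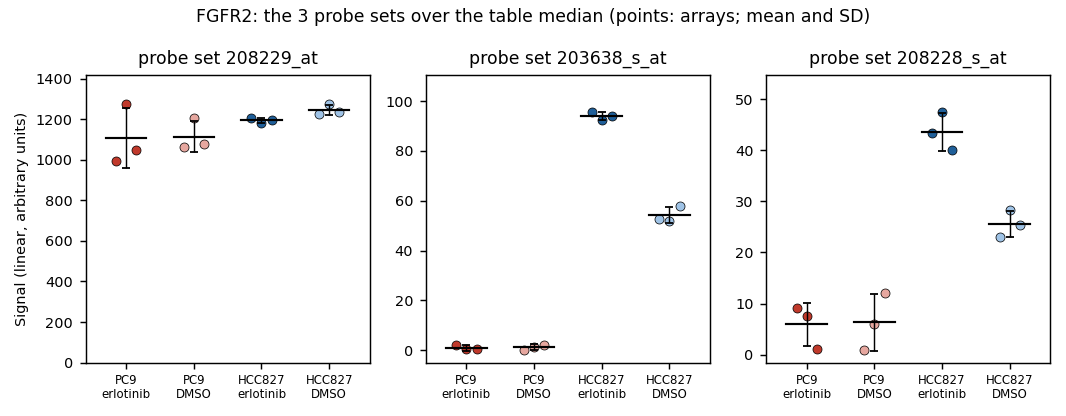
Linear signal (arbitrary units) of the 3 FGFR2 probe sets that passed the filter, by group. Points are arrays, long bars the mean and short bars the SD of 3 arrays. The first probe set lies between 995.1 and 1276.3 on all arrays, and the other 2 are higher in HCC827 and highest with erlotinib.

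FGFRL1, a receptor-like protein that binds FGFs but lacks a kinase domain, read 102.5, 122.7 and 129.5 on PC9 erlotinib arrays and 168.1, 133.0 and 149.4 on PC9 DMSO arrays. HCC827 arrays read 103.7, 88.6 and 87.6 with erlotinib and 45.8, 51.2 and 52.4 in DMSO. The erlotinib arrays were all below the DMSO arrays in PC9 and all above them in HCC827. FGFRL1 rose in HCC827 by 0.81 ± 0.11 (limma, adjusted p = 1.69e-05) and was called lower in PC9, -0.33 ± 0.11 (limma, adjusted p = 0.0179). The PC9 call was lost without PC9 DMSO replicate 1 (-0.25, limma adjusted p = 0.0866), without PC9 erlotinib replicate 1 (-0.23, limma adjusted p = 0.0976) and over the mean of its 2 probe sets (-0.11, limma adjusted p = 0.524). The changes differed between the lines by -1.13 ± 0.16 (limma, adjusted p = 2.7e-05). PC9 was above HCC827 by 1.45 in DMSO (limma, adjusted p = 4.68e-09).

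In erlotinib FGFRL1 was still higher in PC9 than in HCC827, by 0.31 (limma, adjusted p = 0.0176), but this call was fragile. Without PC9 erlotinib replicate 2 it was 0.29 (limma, adjusted p = 0.0554), without PC9 erlotinib replicate 3 it was 0.25 (0.0798), without HCC827 erlotinib replicate 2 it was 0.28 (0.0585) and without HCC827 erlotinib replicate 3 it was 0.28 (0.0642), with the limma adjusted p in parentheses. It was 0.09 with the actin ratio as a covariate (limma, adjusted p = 0.598).

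**Figure D3:**
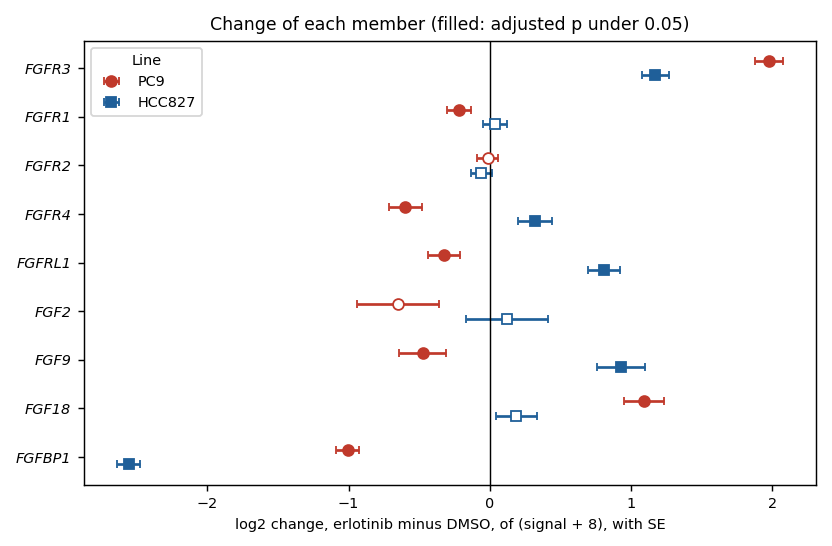
Log2 change of the signal plus 8, erlotinib minus DMSO, of each FGF gene in PC9 (circles) and HCC827 (squares), with the SE of the fit. Filled symbols have an adjusted p under 0.05. FGFR3 lies to the right and FGFBP1 to the left of 0 in both lines, while FGFR4, FGFRL1 and FGF9 lie on opposite sides.

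FGF2, a ligand without a classical secretion signal, differed far more between the lines than between the treatments. PC9 erlotinib arrays read 0.4, 0.4 and 0.4, and PC9 DMSO arrays read 0.7, 20.3 and 1.3. HCC827 arrays read 776.5, 676.3 and 730.7 with erlotinib and 662.4, 673.5 and 667.8 in DMSO. All PC9 arrays but 1 were far below the background of 13, and HCC827 arrays were all far above it. PC9 was below HCC827 by a log2 difference of -6.45 ± 0.29 in erlotinib (limma, adjusted p = 3.74e-12) and of -5.68 ± 0.29 in DMSO (limma, adjusted p = 1.87e-11), or -6.23 in DMSO without PC9 DMSO replicate 2. The size of these differences depends on the constant of 8, since the PC9 values are background. FGF2 passed the filter only through the HCC827 groups, so that a difference between the lines was built into its selection.

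The exception was PC9 DMSO replicate 2, whose FGF2 signal of 20.3 was 3.04% of the HCC827 DMSO mean. On the other PC9 arrays FGF2 lay between 0.0599% and 0.195% of that mean. The second FGF2 probe set, 204421_s_at, read 0.7 on PC9 DMSO replicate 2, or 0.639% of its HCC827 DMSO mean, which was within the range of 0.3 to 0.9 of the other PC9 arrays. The high value was thus seen on 1 of 2 probe sets. Among 17 genes at 5 or less on the other 5 PC9 arrays and at 500 or more in HCC827 DMSO, 5 read above 5 on PC9 DMSO replicate 2. Beside FGF2 these were MYH10 at 17.4, RFLNB at 31.4, TM4SF18 at 10.4 and B3GALT5 at 5.2. The same count made for each of the other PC9 arrays was 1 of 13 for PC9 erlotinib replicate 1 and 0 of 12 for each of the other 4. The source of these signals on PC9 DMSO replicate 2 was not tested.

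Within the lines FGF2 did not pass the test. The PC9 change was -0.65 ± 0.29 (limma, adjusted p = 0.0598), but it was -0.1 without PC9 DMSO replicate 2 (limma, adjusted p = 0.404). With that array kept, it was called without PC9 DMSO replicate 1 (-0.95, limma adjusted p = 0.00725) and without PC9 DMSO replicate 3 (-0.9, limma adjusted p = 0.0169), and with a constant of 1 (-1.64, limma adjusted p = 0.0282) or after centring (-0.8, limma adjusted p = 0.0119). In HCC827 the mean was 727.8 ± 50.2 with erlotinib and 667.9 ± 5.55 in DMSO (SD, n = 3 each), and the arrays did not overlap. The HCC827 change was 0.12 ± 0.29 (limma, adjusted p = 0.751), and the SE, which all groups share, fell to 0.0884 without PC9 DMSO replicate 2 (limma, adjusted p = 0.268). On 204421_s_at the HCC827 erlotinib arrays read 143.3, 120.2 and 148.8 and the HCC827 DMSO arrays 109, 102 and 117.7. These groups did not overlap either, and the change of 0.3 was called in the fit of all probe sets (limma, adjusted p = 0.0358).

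**Figure D4:**
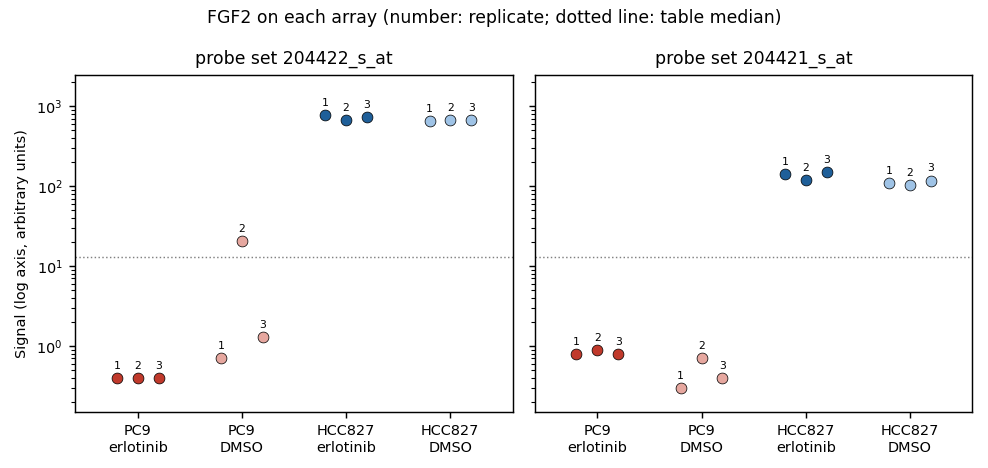
Linear signal (log axis, arbitrary units) of the 2 FGF2 probe sets on each array, numbered by replicate, with the median of the table, 13, as a dotted line. PC9 DMSO replicate 2 is at 20.3 on the first probe set and at 0.7, among the other PC9 arrays, on the second.

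FGF9, a ligand that activates FGFR3 and the mesenchymal forms of the other receptors, read 0.1, 0.1 and 1.7 on PC9 erlotinib arrays and 0.6, 5.4 and 6.9 on PC9 DMSO arrays. HCC827 arrays read 64.7, 59.1 and 63.7 with erlotinib and 31.7, 29.3 and 26.3 in DMSO. FGF9 was above background in HCC827 alone, where the groups did not overlap. It rose in HCC827 by 0.93 ± 0.17 (limma, adjusted p = 0.000249), which with a constant of 1 was 1.08 and missed the threshold (limma, adjusted p = 0.0761). On its other probe set, 206404_at, which was below the filter, the HCC827 change was 0.08 and the groups overlapped. In PC9 all arrays were below 13, the groups overlapped, and the nominal call of -0.48 (limma, adjusted p = 0.0212) lies within background. It was -0.4 without PC9 DMSO replicate 2 (limma, adjusted p = 0.078), -0.32 without PC9 DMSO replicate 3 (0.121), -0.43 without PC9 erlotinib replicate 1 (0.0645) and -0.43 without PC9 erlotinib replicate 2 (0.0631), with the limma adjusted p in parentheses, and -0.72 without PC9 DMSO replicate 1. PC9 was below HCC827 in erlotinib (limma, adjusted p = 6.86e-11) and in DMSO (limma, adjusted p = 1.97e-07). FGF9 too passed the filter only through the HCC827 groups, so that a difference between the lines was built into its selection. The size of these differences is set by the constant, since the PC9 values are background. It was -5.42 in erlotinib and -2.80 in DMSO with a constant of 1, and -1.53 in erlotinib and -0.75 in DMSO with a constant of 32.

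FGF18, a ligand known from cartilage and from the developing lung, read 38.9, 32.8 and 37.4 on PC9 erlotinib arrays and 8.9, 14.6 and 15.5 on PC9 DMSO arrays. HCC827 arrays read 8.1, 8.2 and 5.1 with erlotinib and 4.9, 4.9 and 5.9 in DMSO, all below background. The PC9 erlotinib arrays were the only ones clearly above 13. FGF18 rose in PC9 by 1.09 ± 0.14 (limma, adjusted p = 5.03e-06), and its linear mean was 2.8 times as high with erlotinib, 36.4 ± 3.18, as in DMSO, 13 ± 3.58 (SD, n = 3 each). With a constant of 32 the log2 change was 0.61. The HCC827 change was 0.19 ± 0.14 (limma, adjusted p = 0.291), and the changes differed by 0.9 ± 0.2 (limma, adjusted p = 0.00187). All 4 other FGF18 probe sets that passed the filter were called higher in PC9 too, by 1.08, 1.05, 0.78 and 0.64. They reached a mean of 13 only in the PC9 erlotinib group, so that a rise in PC9 was built into their selection. On 206986_at, which was below the filter, the PC9 change was 0.09 and the PC9 groups overlapped. PC9 was above HCC827 by 1.56 in erlotinib (limma, adjusted p = 4.52e-08) and by 0.65 in DMSO (limma, adjusted p = 0.000612), though in DMSO both lines lay near or below background. FGF18 passed the filter only through the PC9 groups, so that a difference between the lines was built into its selection. The DMSO call was lost over the mean of all FGF18 probe sets (0.20, limma adjusted p = 0.087), and on 206987_x_at and 211029_x_at the DMSO difference was -0.087 and -0.019 (limma, adjusted p = 0.647 and 0.927).

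FGFBP1, a secreted protein that releases FGF2 and other FGFs from heparan sulfate, showed the largest change with erlotinib of the 9 genes, in HCC827. PC9 arrays read 40.5, 38.6 and 38.4 with erlotinib and 84.7, 83.2 and 92.3 in DMSO. HCC827 arrays read 145.8, 139.3 and 125.6 with erlotinib and 850.1, 839.3 and 839.7 in DMSO. The groups did not overlap in either line, and HCC827 in DMSO stood far above all others. In PC9 the mean was 39.2 ± 1.16 with erlotinib and 86.7 ± 4.88 in DMSO (SD, n = 3 each), a linear ratio of 0.452. In HCC827 it was 136.9 ± 10.3 with erlotinib and 843 ± 6.12 in DMSO, a ratio of 0.162. FGFBP1 fell by 1.01 ± 0.08 on the log2 scale in PC9 (limma, adjusted p = 1.86e-08) and fell by 2.56 ± 0.08 in HCC827 (limma, adjusted p = 5.84e-13). The PC9 change minus the HCC827 change was 1.55 ± 0.12 (limma, adjusted p = 2.41e-08). PC9 was below HCC827 by -3.17 in DMSO (limma, adjusted p = 2.24e-15) and by -1.62 in erlotinib (limma, adjusted p = 1.76e-11). These calls were kept under every alternative tried, and the gene has 1 probe set.

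Over the members, the change differed between the lines for 6 of 9, 3 each way, against 45.2% of all genes (21.2% with the higher and 23.9% with the lower change in PC9). In DMSO 6 of 9 differed between PC9 and HCC827, 2 higher and 4 lower in PC9, against 76.2% of all genes (36.8% higher, 39.4% lower), and the arrays did not overlap for 8, against 78.5% of all genes. In erlotinib 7 of 9 differed, 2 higher and 5 lower in PC9, against 76.4% of all genes (36.3% higher, 40.1% lower), and the arrays did not overlap for 6, against 76.8% of all genes. For the levels these shares were near those of all genes. For the changes the members' share was higher, but this rests on 9 genes, was not tested and is not read as a trait of the FGF genes. Among the 6, FGFR4, FGF9 and FGF18 are limited by probe set or background as given with them. FGF2 and FGF9 passed the filter only through the HCC827 groups and FGF18 only through the PC9 groups, so that a difference between the lines was built into their selection. The order of the levels over the 4 groups differed from gene to gene. FGFR3 was highest in HCC827 with erlotinib, then PC9 with erlotinib, HCC827 in DMSO and PC9 in DMSO, with no overlap between neighbours. FGFRL1 was highest in PC9 in DMSO and lowest in HCC827 in DMSO, and its 2 erlotinib groups in between overlapped. FGFR4 was highest in HCC827 with erlotinib and lowest in PC9 with erlotinib, and no neighbours in its order overlapped, although the step from HCC827 in DMSO to PC9 in DMSO missed the threshold.

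Genes with the most similar course to 3 of the members were found by the root mean square difference of centred log2 signals over the 12 arrays. For FGFR3 they were BTN3A1 (0.137), GPR176 (0.138) and KDM7A (0.152), which had log2 changes of 2.01, 1.8 and 1.85 in PC9 and of 1.04, 1.15 and 1.26 in HCC827. For FGFR1, whose signal varied little, they were TMEM200B (0.055), DLD (0.0658) and ERO1A (0.0679). For FGF2 they were MYH10 (0.214), DYNLT3 (0.261) and GALC (0.397), whose changes with erlotinib did not pass the test in either line. MYH10 is also among the genes that read high on PC9 DMSO replicate 2.

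The other FGF ligands were mostly not measurable. Of 19 listed, 13 were below the filter, and the 6 tested include the intracellular homologous factors FGF11 to FGF14, which are not secreted and do not act through FGF receptors in the usual way. In PC9 2 of 6 were called higher and 1 lower (all genes 36.3% and 28.3%), with a median change of -0.14 against 0.05 for all genes. FGF12 rose by 0.83, with means of 142 ± 17.3 in PC9 erlotinib and 76 ± 11.2 in PC9 DMSO. FGF1, which binds all FGF receptors, rose by 0.45 in PC9, with means of 14.2 ± 1.08 with erlotinib and 8.27 ± 2.06 in DMSO (SD, n = 3 each). In PC9 FGF13 was called lower (-0.28, limma adjusted p = 0.0122), a call lost without PC9 DMSO replicate 3 or PC9 erlotinib replicate 2. Under both other scalings 3 of 6 were called lower in PC9. Of all 13185 genes, 4063 were called lower in PC9 after quantile normalization and 5015 after centring, against 3734 before. In HCC827 3 of 6 were called higher (all genes 32.2%), with a median of 0.42 against 0.07 for all genes. FGF5 rose there by 1.28, with means of 75.9 ± 12.4 with erlotinib and 26.4 ± 2 in DMSO, FGF11 by 1.11 and FGF13 by 0.67.

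Of 19 co-receptors and FGF binding proteins, 15 were tested. In PC9 9 were called higher and 5 lower (all genes 36.3% and 28.3%), with a median of 0.49, and in HCC827 8 were called higher and 1 lower (all genes 32.2% and 19.5%), with a median of 0.21. KL, the co-receptor Klotho that endocrine FGF23 needs, rose in PC9 (limma, adjusted p = 3.61e-10), with means of 57.4 ± 12.3 with erlotinib and 3.77 ± 0.404, below background, in DMSO. It was below background in both HCC827 groups. KL thus passed the filter only through the PC9 erlotinib group, so that a rise in PC9 was built into its selection. The heparan sulfate proteoglycans GPC4 and HSPG2 rose in both lines, GPC4 by 1.67 in PC9 and 1.51 in HCC827 and HSPG2 by 1.63 in PC9 and 1.57 in HCC827. In HCC827 the GPC4 means were 36 ± 1.65 with erlotinib and 7.43 ± 0.751, below background, in DMSO. The size of that change therefore depends on the constant of 8. FLRT2, a membrane protein of a family that binds FGF receptors, rose by 1.14 in PC9. CDH2, N-cadherin, which binds FGFR1, rose by 2.02 in HCC827, with means of 408 ± 16.8 with erlotinib and 94.9 ± 7.34 in DMSO. KLB, the co-receptor for FGF19 and FGF21, was called lower in both lines (-0.65 in PC9, -0.85 in HCC827). FGFBP3, a relative of FGFBP1, was called lower in PC9 (-0.78) and higher in HCC827 (0.47), and this difference between the lines was itself called (-1.25, limma adjusted p = 1.2e-05).

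Among 14 measured enzymes that build or trim heparan sulfate, 3 were called higher and 6 lower in PC9 (all genes 36.3% and 28.3%), with a median of -0.07, and 6 higher and 2 lower in HCC827 (all genes 32.2% and 19.5%), with a median of 0.30. HPSE, which cuts heparan sulfate chains, rose in both lines, by 1.39 in PC9 and 1.22 in HCC827. HS3ST1, a sulfotransferase, fell in both, by 1.65 in PC9 and by 0.86 in HCC827. EXT1, which elongates the chains, rose by 1.35 in PC9 and by 0.36 in HCC827. NDST1, which sulfates them, rose by 0.61 in PC9 and by 0.97 in HCC827. HS6ST1, which also sulfates them, rose by 1.01 in HCC827 and had a PC9 change of -0.006 (limma, adjusted p = 0.957). Without PC9 DMSO replicate 2, 5 of these enzymes were called lower in PC9.

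Of 24 listed adaptors and kinases that carry the receptor signal, 19 were tested. In PC9 9 were called higher and 4 lower (all genes 36.3% and 28.3%), with a median of 0.26, and in HCC827 4 were called higher and 4 lower (all genes 32.2% and 19.5%), with a median of 0.02 that was -0.05 after centring. The exchange factor SOS2 rose by 1.62 in PC9 and 0.72 in HCC827, and the docking protein GAB2 rose by 0.88 in PC9 and 1.37 in HCC827. GAB1 rose by 1.3 in PC9 and HRAS fell there by 0.85. PLCG1, the phospholipase that binds activated FGF receptors directly, rose by 1.09 in HCC827.

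The feedback inhibitors and target genes of FGF and ERK signalling were mostly lower. Of 16 tested, 13 were called lower and 1 higher in PC9 (all genes 28.3% and 36.3%), with a median of -1.61, and 12 lower and 1 higher in HCC827 (all genes 19.5% and 32.2%), with a median of -0.73. These genes also respond to EGFR, and their fall with erlotinib in these samples was known when the list was drawn up. SPRY4 fell by 4.32 in PC9 and by 1.51 in HCC827, DUSP6 fell by 4.15 in PC9 and fell by 1.76 in HCC827, and ETV4, an ETS transcription factor, fell by 2.72 in PC9 and fell by 0.91 in HCC827. EGR1, an immediate early gene, rose in PC9 by 1.17. IL17RD, an inhibitor of FGF signalling also called SEF, rose in HCC827 by 1.06 and had a PC9 change of -0.16 that missed the threshold (limma, adjusted p = 0.156). For 11 of 16 the PC9 change was called below the HCC827 change (all genes 23.9%), and for 2 above it (all genes 21.2%). Of 5 measured regulators of FGFR2 splicing, 1 was called higher and 2 lower in PC9 (all genes 36.3% and 28.3%), and all 5 missed the threshold in HCC827, where 51.7% of all genes were called, with limma adjusted p of 0.202 or more. RBFOX2 rose by 0.5 in PC9, and HNRNPM and PTBP1 were called lower there (-0.37 and -0.3), while ESRP1, which drives the epithelial splice form, had changes of -0.03 in PC9 and 0.08 in HCC827 that missed the threshold.

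**Figure D5:**
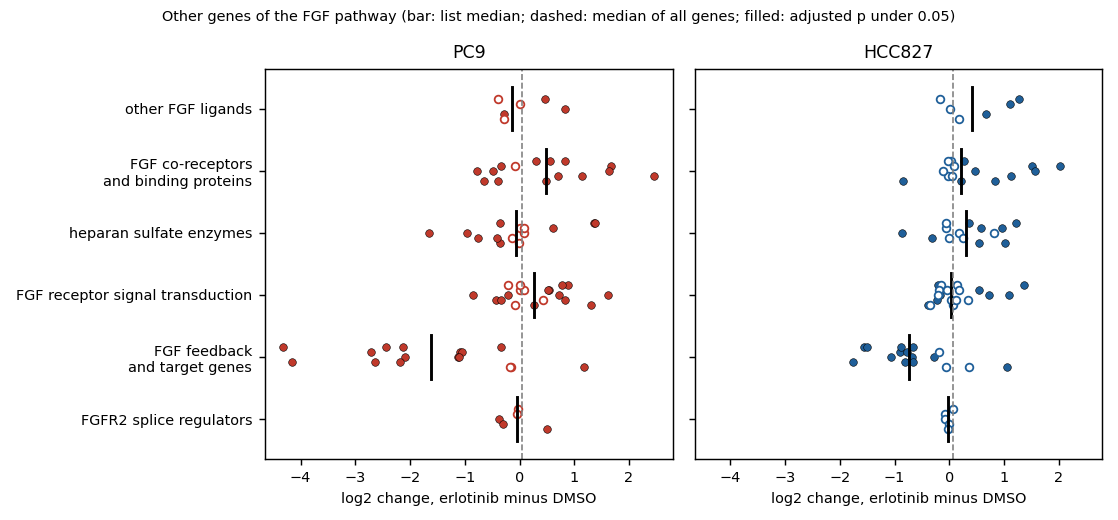
Log2 change of the signal plus 8, erlotinib minus DMSO, of other genes of the FGF system in PC9 and HCC827. Points are genes (filled where the adjusted p is under 0.05), bars are list medians and the dashed line is the median of all genes. The feedback and target genes lie mostly below 0 in both lines.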

How the data were processed

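Per the labels' protocols, RNA came from an RNeasy Plus purification, and a NuGEN Ovation kit served for amplification and biotin labelling. The values the authors deposited are linear intensities, 1 for each probe set on each array, from MAS5 per the submitters' processing notes (version not given there). Its values have the same 2% trimmed mean of 150 on every array, and it holds no detection calls. Of 54675 probe sets, 62 were controls, 41091 were paired with 1 gene symbol by the platform annotation (0 symbols needed updating), 1801 with several and 11721 with none. Each of 19775 genes was represented by its brightest probe set. A gene was tested if any group's mean was at or above 13, the table's median, which left 13185.

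Signals were tested as log2 of the signal plus 8 with limma 3.58.1 (R 4.3.3), with a mean for each group, moderated variances with an intensity trend and Benjamini-Hochberg adjustment over all tested genes. Adding 8 understates the change of dim genes. The 5 contrasts were erlotinib minus DMSO in each line, the PC9 change minus the HCC827 change, and PC9 minus HCC827 in DMSO and in erlotinib. In simulated data (13185 genes), each gene had the same mean in all groups before any change, with independent normal noise of its fitted spread. In the PC9 contrast the procedure called 76 of 100 genes changed by log2 0.5, 100 of 100 genes changed by log2 1 and 15 unchanged genes. All other genes were left unchanged, whereas in the real data 64.7% of all genes were called in PC9. These counts therefore do not give the recovery or the false calls of the real comparison. All 9 FGF genes and their probe sets are named, as are the 3 nearest genes of FGFR3, FGFR1 and FGF2, and genes on which PC9 DMSO replicate 2 stood apart. From each other list, genes were taken from the up to 4 called ones with the largest changes in each line. Of these, SPRY1, ETV1, DUSP5, SULF1, SDC3 and SOS1 are not described. KLB, FGFBP3, EGR1, IL17RD and ESRP1 were named after their values were seen. The members, lists and alternatives were chosen with earlier results of these data known. The alternatives were another constant (1 or 32), quantile normalization, median centring, no filter or a 70th percentile filter, the mean of all probe sets, each probe set singly, no intensity trend, the 6 arrays of a line alone, a replicate block, a covariate for the actin 3′/5′ ratio, and leaving out arrays. FRS2 was not analysed here.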

Additional observations from a re-analysis of the deposited data

Results flagged for a closer look

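For 6 of the 9 FGF genes the erlotinib change itself differed between the lines in the limma fit (Benjamini-Hochberg adjusted p under 0.05 for the difference). The PC9 change minus the HCC827 change was 0.81 for FGFR3 and 1.55 for FGFBP1, which moved the same way in both lines. It was 0.90 for FGF18, which rose in PC9, and -1.41 for FGF9, which rose in HCC827. Both genes passed the filter through that line alone and lay below background in the other, so that a difference was built into their selection, and over the alternatives it ran from 0.53 to 1.09 for FGF18 and from -2.62 to -0.73 for FGF9. It was -0.92 for FGFR4 and -1.13 for FGFRL1, which were lower in PC9 and higher in HCC827. All 6 differences stayed past the threshold under each alternative setting of the gene fit in which the gene passed the filter. These settings numbered 23 for FGFR3, FGFRL1 and FGFBP1, 22 for FGF18 and FGF9 and 21 for FGFR4. The PC9 call of FGFRL1 and the HCC827 call of FGFR4 did not stay past it under all settings. With probe sets tested singly, the FGFR4 difference was 0.15 on 211237_s_at, the other of its probe sets that passed the filter (limma, adjusted p = 0.659).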

How the results depend on the processing

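Of 45 values (9 genes in 5 contrasts), 31 were called. Of these, 24 were kept under every alternative setting of the gene fit in which the gene passed the filter. A further 7 were lost under at least 1, and 0 reversed. With the 12 other probe sets over the filter tested singly, 18 of 26 values for called results kept direction and call, 3 were lost and 5 turned, none of them called. The 5 were FGFR1 in PC9 (0.020), FGFR4 in HCC827 (-0.41), the FGFR4 difference (0.15) and FGF18 between the lines in DMSO (-0.087 and -0.019). Of the 12 probe sets, the 4 of FGF18 passed the filter only through PC9 erlotinib and the 1 of FGF2 only through HCC827. For these, a kept call was partly built into the selection. In the gene fit the values that reversed were uncalled. FGFR2 in PC9 was 0.041 after quantile normalization and -0.12 to 0.056 with single arrays left out, and FGFR2 in HCC827 was 0.15 over the mean of all probe sets and 0.046 with the actin covariate. The FGFR2 difference between the lines was -0.029 after centring, -0.24 over the mean of all probe sets, -0.058 with the actin covariate and -0.062 to 0.12 with single arrays left out. FGFR1 in HCC827 was -0.027 after quantile normalization, -0.039 after centring and -0.044 over the mean of all probe sets, where FGF18 in HCC827 was -0.033 and the FGFR1 difference between the lines in DMSO was -0.00031. The number of genes called in HCC827, 6813, was 4149 with the actin covariate and 4399 without HCC827 erlotinib replicates 2 and 3, a fit that lends the single remaining erlotinib array the spread of the rest. With single arrays left out it was 5953 to 7102, and in PC9 7911 to 8523 against 8525.

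The replicate block gave 8442 called genes in PC9, 6654 in HCC827, 5759 for the difference, 9966 between the lines in DMSO and 10014 in erlotinib. It brought FGFR2 (-0.16, limma adjusted p = 0.0403) and FGFR4 (-0.27, limma adjusted p = 0.049) past the threshold between the lines in DMSO. Same-numbered arrays correlated in their deviations by -0.25, -0.19 and -0.02 in PC9 and 0.01, 0.13 and 0.01 in HCC827. Of 12 arrays, 3 correlated best with their own number. These values gave no sign of pairing by number, but a weak effect shared by paired samples could go unseen in them. FGF2 and FGF9 in PC9 and FGF18 in HCC827 lie below the median of the table, and their changes there are limited by background.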
